A study of Homo sapiens with 30 samples.

Results

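RNA levels of 8 transcription factors of endothelial identity and of NOS3, the gene of endothelial nitric oxide synthase, were followed in the immortalised line hCMEC/D3, derived from endothelium of human brain microvessels and used to model the blood-brain barrier in culture. The 9 genes were KLF2, KLF4, SOX7, SOX17, SOX18, ERG, FLI1, ETS1 and NOS3. They were chosen by symbol, and all 9 were found among the 63138 genes of the count table. The table held 30 libraries in 10 groups of 3. Cells of 5 groups were exposed for 12 h to serum-free medium alone (Control), to tumour necrosis factor at 25 ng/mL (TNF), to interleukin 1 beta at 10 ng/mL (IL1b), to epinephrine at 200 nM (Epinephrine) or to C5a, a fragment of complement, at 50 ng/mL (C5a). Cells of the other 5 groups, the vesicle groups, received extracellular vesicles enriched from supernatants of cells treated in those ways and were also labelled 12 h (EV-Control, EV-C5a, EV-Epinephrine, EV-IL1b and EV-TNF). All groups are of 1 cell line and carry batch number 1 in the labels. Nothing in the labels says whether the 3 libraries of a group came from separate cultures, so p-values measure only the spread between these libraries, which may be technical.

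The members fall into 3 families of transcription factors and 1 enzyme. KLF2 and KLF4 are Krüppel-like factors that laminar flow induces in endothelium through the kinases MAP2K5 and MAPK7 and the MEF2 factors, and they are known for an anti-inflammatory, anti-thrombotic state that includes expression of NOS3. SOX7, SOX17 and SOX18 form the SOXF group of SRY-related factors, which act in vascular development, arterial identity and lymphatic specification. ERG, FLI1 and ETS1 belong to the ETS family, whose binding sites are found in nearly all endothelial enhancers. ERG and FLI1 are known to maintain endothelial identity, and ETS1 is known from angiogenesis and from responses to inflammatory cytokines. NOS3 makes nitric oxide, which relaxes vascular smooth muscle and limits adhesion of platelets and leukocytes.

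In hg38 (GENCODE 29) KLF2 lies at chr19:16324817-16327874 on the plus strand, KLF4 at chr9:107484852-107490482 on the minus strand and NOS3 at chr7:150990995-151014588 on the plus strand. SOX18 lies at chr20:64047582-64049641 on the minus strand. ETS1 (chr11:128458761-128587558, minus) and FLI1 (chr11:128686535-128813267, plus) are close together on chromosome 11, and ERG lies at chr21:38380027-38661780 on the minus strand.

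The promoter sequences of KLF2, KLF4 and NOS3 are shown because these are the 3 members that IL1b lowered, and to show which short motifs each holds. RefSeq (GRCh38.p14) gave promoter windows for 4 of the 9 members, KLF2, KLF4, ERG and NOS3, with 8 annotated starts in all. Each sequence is the 250 bases before the first listed RefSeq start, read 5′ to 3′ on the strand of the gene, with matches to the searched motifs in capitals. The KLF2 window is chr19:16324576-16324825 on the plus strand, the KLF4 window is chr9:107489770-107490019 on the minus strand and the NOS3 window is chr7:150993532-150993781 on the plus strand. For KLF4 and NOS3 the gene as annotated in GENCODE 29 begins further upstream, so these windows lie inside it.
KLF2: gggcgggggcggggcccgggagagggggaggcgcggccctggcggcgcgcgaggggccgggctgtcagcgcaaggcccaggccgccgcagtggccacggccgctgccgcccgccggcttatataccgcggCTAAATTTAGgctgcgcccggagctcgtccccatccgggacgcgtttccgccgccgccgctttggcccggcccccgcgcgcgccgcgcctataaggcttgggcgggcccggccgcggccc
KLF4: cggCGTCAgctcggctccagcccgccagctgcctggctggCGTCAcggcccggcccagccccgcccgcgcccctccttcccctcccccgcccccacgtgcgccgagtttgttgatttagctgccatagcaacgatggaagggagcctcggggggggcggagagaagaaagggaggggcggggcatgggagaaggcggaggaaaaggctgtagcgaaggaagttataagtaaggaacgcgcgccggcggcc
NOS3: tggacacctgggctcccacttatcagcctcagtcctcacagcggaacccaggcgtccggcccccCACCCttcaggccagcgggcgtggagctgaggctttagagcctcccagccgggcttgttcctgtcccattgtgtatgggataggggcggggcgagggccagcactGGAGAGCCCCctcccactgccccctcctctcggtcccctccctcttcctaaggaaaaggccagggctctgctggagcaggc

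The capitals mark a match to the MEF2 motif in KLF2, at 120 bases before the start. In KLF4 they mark 2 copies of the core of the cAMP response element, TGACG, both read on the opposite strand. In NOS3 they mark the KLF motif CACCC at 186 bases and a match to the NF-kappaB motif, read on the opposite strand, at 81 bases before the start. The motifs searched on both strands were these 4 and the SOX motif AACAAT and the ETS motif CCGGAAG, and no match overlapped another in these sequences. Of 35116 RefSeq windows of the same length, 2.8% held the MEF2 motif, 21.2% TGACG, 54.7% CACCC, 5.21% the NF-kappaB motif, 8.98% AACAAT and 8.52% CCGGAAG. A match is a description of the sequence and shows no binding.

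Library totals ran from 16643961 to 22112326 counts. Levels are given as CPM, counts scaled to a common library size with trimmed-mean (TMM) factors. The endothelial label was checked against 10 markers, and all were expressed, among them PECAM1 (group means of 148 to 271 CPM), CDH5 (177 to 426 CPM) and ENG (199 to 236 CPM). Markers of other cells were read beside them. PPBP, PF4 and AQP4 were at 0 counts in every library, and PTPRC reached at most 1.3 CPM and EPCAM at most 0.191 CPM as group means. Low levels were seen for GFAP, an astrocyte marker like AQP4 (1.49 to 4.45 CPM), and for CD14, a leukocyte marker like PTPRC (0.902 to 2 CPM). CSPG4 (267 to 430 CPM), COL1A2 (127 to 208 CPM) and KRT18 (155 to 336 CPM) were present throughout. Of 8 mural markers 1 was under 1 CPM, and their sum was 391 to 442 CPM in Control and 484 to 506 CPM in TNF libraries. From Control to TNF the mean of CSPG4 went from 324 to 430 CPM. PDGFRB went the other way (68.2 to 35.2 CPM), as did RGS5 (7.86 to 5.38 CPM), ACTA2, CNN1 and MYH11. TAGLN and DES stayed near their Control means. MAP2, a neuronal marker, ran from 33.1 to 125 CPM as group means, with the neuronal sum at 39.8 to 49.7 CPM in Control and 120 to 132 CPM in TNF libraries. Of 8 fibroblast and mesenchymal markers 2 were under 1 CPM, and their sum was 284 to 319 CPM in Control, 318 to 333 in TNF, 211 to 253 in the other 3 stimulated groups and 279 to 362 CPM in the vesicle groups. The mesenchymal factor SNAI2 stood at 4.97 to 5.96 CPM in Control, 55.2 to 64.3 in TNF, 18.2 to 22.9 in Epinephrine and 32.3 to 51.6 CPM in EV-Control libraries. SNAI1 (group means of 4.26 to 28.9 CPM) and TWIST1 (1.86 to 13.1 CPM) also varied, SNAI1 with its highest mean in EV-Control and TWIST1 in EV-IL1b. The sum of the 10 endothelial markers lay between 1260 and 1310 CPM in Control, 1180 and 1220 in TNF, 913 and 1070 in the other 3 stimulated groups and 830 and 985 CPM in the vesicle groups. The parts of these marker levels in the results below were not tested, and in bulk RNA fewer cells of a type and less RNA per cell cannot be told apart.

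Per exon length in GENCODE 29 (RPKM, CPM per exon kilobase), KLF2 was the most abundant member in Control cells, at 96.9 ± 19.6 RPKM (mean ± SD, n = 3, as all values with ± below). KLF4 followed at 32.6 ± 7.84, SOX17 at 19.3 ± 1.51, ETS1 at 16.8 ± 0.572, ERG at 12.3 ± 0.555 and FLI1 at 9.72 ± 0.378 RPKM. The Control libraries of neighbouring genes in this order did not overlap, from KLF2 (lowest library 83.7 RPKM) to FLI1 (highest library 10.1 RPKM). SOX18 (1.79 ± 0.265 RPKM) and SOX7 (1.37 ± 0.121 RPKM) were low and also did not overlap each other. NOS3 was lowest, at 0.112 ± 0.0349 RPKM, or 9 to 17 counts per Control library.

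**Figure D1:**
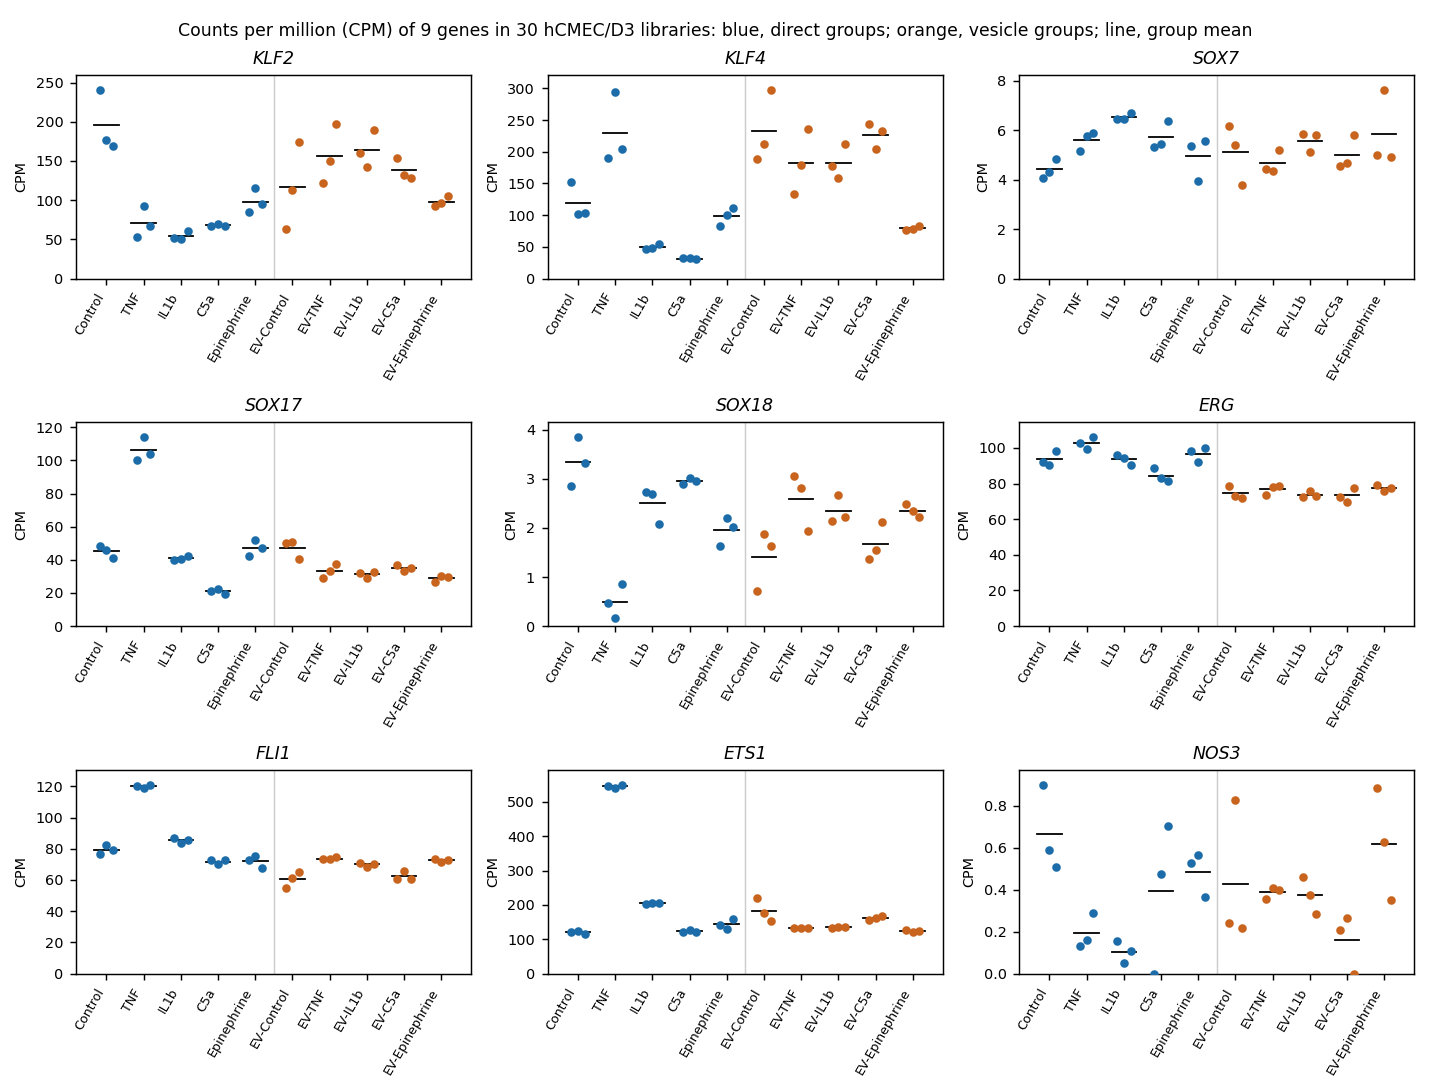
Each panel plots one gene in CPM on its own axis from 0, with one point per library (3 per group), blue for direct groups, orange for vesicle groups and a line at the group mean. The TNF libraries are the highest of all for ETS1 (540 to 550 CPM) and SOX17 (100 to 114 CPM). For SOX18 they hold 0.161 to 0.866 CPM, below every library except EV-Control 1 (0.72 CPM), which lies within their range.

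The first question was how many of the 9 genes changed in each comparison, tested with edgeR's quasi-likelihood test at an adjusted p under 0.05 over all genes. All 9 passed the filter on low counts. TNF changed 8 members, 5 higher and 3 lower than in Control, where 52.7% of 15908 genes were called (27.5% higher, 25.3% lower). IL1b changed 5, 2 higher and 3 lower (background 46.6%, with 24% higher and 22.6% lower). C5a changed 3, all lower (background 22.6%, with 11.8% higher and 10.8% lower), and Epinephrine changed 3, 1 higher and 2 lower (background 25.2%, with 13.5% higher and 11.8% lower). IL1b differed from TNF in 5 members, 1 higher and 4 lower (background 41.4%, with 19.9% higher and 21.4% lower). Epinephrine differed from C5a in 4, all higher (background 17.1%, with 8.98% higher and 8.08% lower).

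Among the vesicle groups, EV-TNF differed from EV-Control in 4 members, 2 higher and 2 lower, against 13.3% of 15918 genes (5.9% higher, 7.42% lower). EV-IL1b differed in 3, 1 higher and 2 lower (background 14.6%, with 6.49% higher and 8.14% lower). EV-C5a differed in 1, lower, where 8 genes were called in all (background 0.0503%, with 0.0126% higher and 0.0377% lower). EV-Epinephrine differed in 4, 1 higher and 3 lower (background 19.7%, with 9.12% higher and 10.5% lower). EV-Control differed from Control in 6 members, 2 higher and 4 lower, against 21.9% of 16691 genes (12.1% higher, 9.8% lower). The 4 comparisons with Control share their Control libraries, and those with EV-Control share theirs.

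Libraries of the groups compared did not overlap for 9 members with TNF (background 59.6%), 7 with IL1b (56.3%), 6 with C5a (40.4%) and 4 with Epinephrine (33.9%). They did not overlap for 7 members between IL1b and TNF (51.5%) and 6 between Epinephrine and C5a (29.8%). Against EV-Control this held for 4 members with EV-TNF (27.1%), 4 with EV-IL1b (28.5%), 1 with EV-C5a (10.9%) and 5 with EV-Epinephrine (34.1%), and for 5 between EV-Control and Control (34.9%). The median log2 fold change of the members was 0.35 with TNF, -0.14 with IL1b, -0.16 with C5a, -0.14 with Epinephrine and -0.33 in EV-Control against Control, where that of all genes lay between -0.01 and 0.01.

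**Figure D2:**
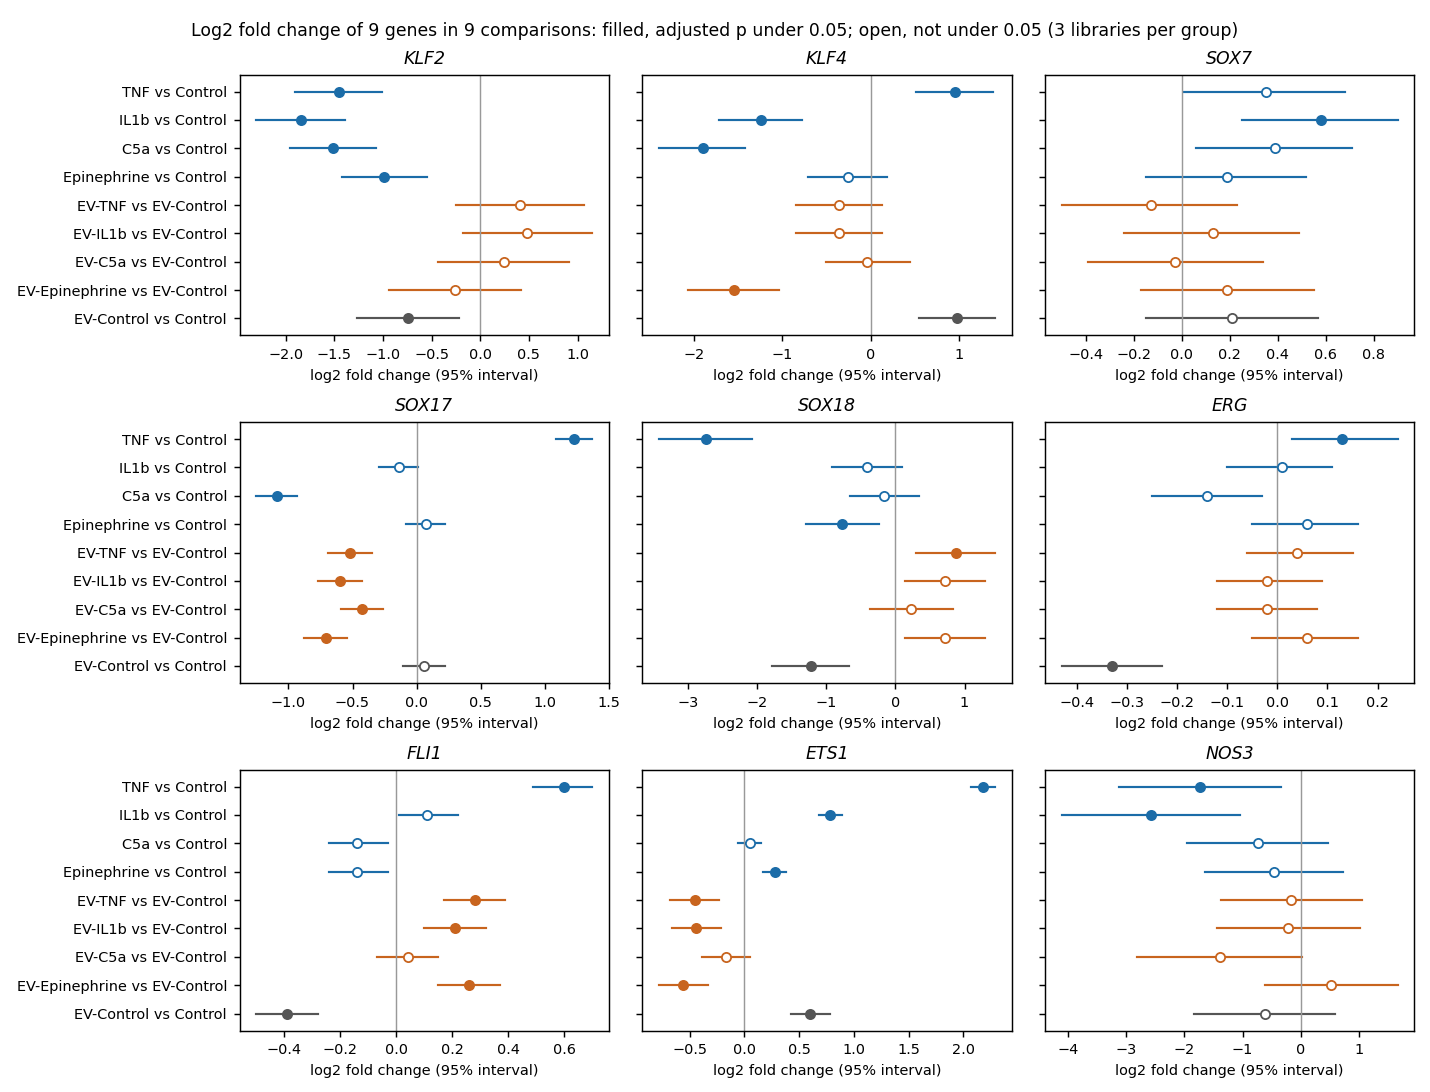
Each panel plots one gene, with its log2 fold change and 95% interval on its own horizontal axis for 9 comparisons, filled where the adjusted p is under 0.05 (blue, direct; orange, vesicle; grey, EV-Control against Control). ERG stays within 0.33 of 0 in all 9 comparisons, and SOX17 is lower in all 4 vesicle comparisons.

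KLF2 RNA was lower than in Control under all 4 direct stimuli. The 3 Control libraries held 241, 177 and 169 CPM. TNF libraries held 53, 92.7 and 67.5 CPM, IL1b libraries 51.8, 50.8 and 60.1 CPM, C5a libraries 67.6, 70.1 and 66.5 CPM and Epinephrine libraries 84.4, 115 and 95.1 CPM. Every stimulated library lay below every Control library. KLF2 fell by 1.84 on the log2 scale under IL1b (SE 0.2, adjusted p 2.07e-05), by 1.51 under C5a (SE 0.2, adjusted p 0.000272), by 1.45 under TNF (SE 0.2, adjusted p 9.3e-05) and by 0.99 under Epinephrine (SE 0.2, adjusted p 0.00358). The difference between IL1b and TNF was -0.39 (95% interval -0.86 to 0.08, adjusted p 0.174) and that between Epinephrine and C5a 0.53 (0.07 to 0.98, adjusted p 0.114), neither past the threshold.

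KLF4 did not follow KLF2 under TNF. Control libraries held 152, 102 and 104 CPM of KLF4, and TNF libraries held 190, 295 and 204 CPM, all of them higher. It rose by 0.95 (SE 0.19, adjusted p 0.00173) where KLF2 fell. IL1b libraries held 47.2, 49 and 54.1 CPM and C5a libraries 32.2, 32.2 and 30.7 CPM, all below the Control range. KLF4 fell by 1.24 under IL1b (SE 0.21, adjusted p 0.000518) and by 1.9 under C5a (SE 0.22, adjusted p 9.57e-05). Epinephrine libraries held 83.5, 99.7 and 112 CPM and overlapped Control (-0.26, 95% interval -0.71 to 0.18, adjusted p 0.393). Compared directly, KLF4 was lower in IL1b than in TNF cells (log2 fold change -2.19, SE 0.21, adjusted p 6.17e-06), and higher in Epinephrine than in C5a cells by 1.64 (SE 0.22, adjusted p 0.000367).

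The ratio of KLF4 to KLF2 counts within a library does not depend on scaling. It was 0.575 to 0.632 in Control and 3.02 to 3.59 in TNF libraries. In IL1b libraries it was 0.901 to 0.966, in Epinephrine libraries 0.868 to 1.18 and in C5a libraries 0.46 to 0.477. The vesicle groups lay between 0.789 and 2.97. Every C5a library lay below Control, and every TNF library above all others.

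**Figure D3:**
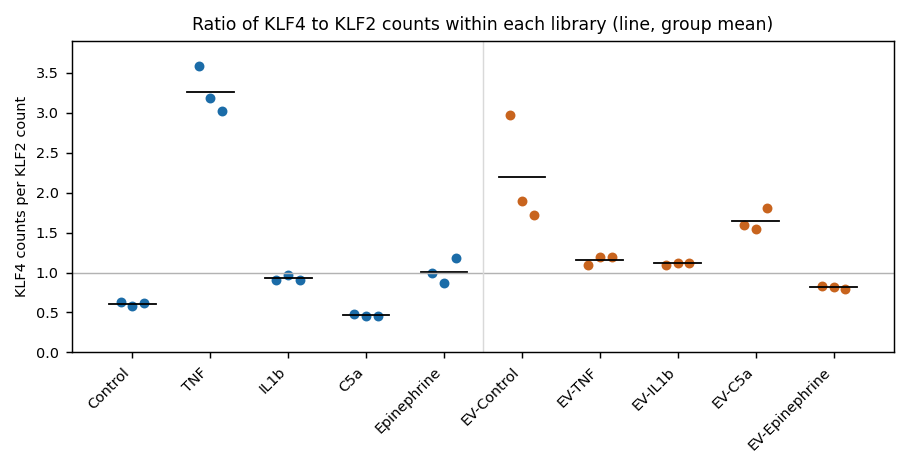
The vertical axis is the number of KLF4 counts per KLF2 count in each of the 30 libraries, with a line at each group mean and a grey line at 1. TNF (3.02 to 3.59) lies above every other group, and EV-Control (1.72 to 2.97) spreads widest.

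EV-Control libraries held 63.5, 113 and 174 CPM of KLF2 and 188, 213 and 298 CPM of KLF4, a wide spread. For KLF2, EV-TNF (122, 150 and 197 CPM), EV-C5a (154, 132 and 128 CPM), EV-IL1b (160, 142 and 190 CPM) and EV-Epinephrine (92.5, 95.9 and 105 CPM) overlapped EV-Control, and no comparison passed, with log2 fold changes from -0.26 to 0.48. KLF4 in EV-Epinephrine libraries held 77.2, 78.9 and 83.2 CPM, below every EV-Control library, and fell by 1.55 (SE 0.23, adjusted p 0.000644). KLF4 held 133 to 236 CPM in EV-TNF, 159 to 212 CPM in EV-IL1b and 205 to 244 CPM in EV-C5a, overlapping EV-Control each time. Against Control, EV-Control cells had more KLF4 (0.97, SE 0.21, adjusted p 0.00158) and less KLF2 (-0.74, SE 0.25, adjusted p 0.0389), although the KLF2 libraries of these groups overlapped. Without the first EV-Control library, which held the 63.5 CPM and stands apart from the other EV-Control libraries for several members, the KLF2 difference was -0.44 (adjusted p 0.219) and that of KLF4 1.11 (adjusted p 0.00124). The KLF2 call was also lost without Control 1 (adjusted p 0.199), Control 2 (0.0581) or EV-Control 2 (0.109), and both calls in a fit of these 2 groups alone (adjusted p 0.33 for KLF2 and 0.0853 for KLF4).

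Genes upstream of KLF2 and other Krüppel-like factors formed a list of 19, all tested. Under IL1b 13 were lower and 1 higher, against 22.6% lower and 24% higher of all genes. C5a lowered 11 and raised 1 (background 10.8% lower), Epinephrine lowered 9 and raised 2 (background 11.8% lower), and TNF lowered 8 and raised 4 (background 25.3% lower; 13 lower and 2 higher with library totals alone). The list's median log2 fold change was -0.39 with IL1b, -0.29 with C5a, -0.21 with Epinephrine and -0.13 with TNF. KLF10, a factor induced by transforming growth factor beta, fell from 313 to 122 CPM under IL1b (-1.35) and to 78.1 CPM under C5a (-1.99). KLF9 fell from 333 to 125 CPM under C5a (-1.41), and KLF11 from 56.2 to 28.9 CPM under IL1b (-0.95). HDAC5, a class IIa histone deacetylase that binds MEF2 factors, fell under all 4 stimuli, from 64.2 CPM in Control to 26.6 CPM with Epinephrine (-1.26). TNF raised KLF6 from 748 to 1610 CPM (1.11) and KLF7 from 29 to 78.9 CPM (1.44). MAPK7, the kinase upstream of KLF2, passed in none of these 4 comparisons (log2 fold changes of -0.16 to 0.08), while MAP2K5 was lower under TNF (-0.39), IL1b (-0.37) and C5a (-0.35). Among vesicle groups KLF9 fell from 574 CPM in EV-Control to 324 in EV-TNF (-0.83), 310 in EV-IL1b (-0.89) and 245 CPM in EV-Epinephrine (-1.23), and it was higher in EV-Control than in Control (0.78).

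Of 7 genes listed as targets of KLF2 and KLF4, 4 were tested, and they did not share a direction. The list carries no expected direction for its genes, so their directions are given only as a description. Under TNF PLPP3, a lipid phosphate phosphatase, rose from 15.4 to 51.2 CPM (1.74), ASS1, the argininosuccinate synthase, from 24 to 49.9 CPM (1.06) and EDN1, endothelin 1, from 101 to 189 CPM (0.91), while the fourth was lower. Under C5a EDN1 (49.8 CPM, -1.01), ASS1 (-0.39) and THBD, thrombomodulin (-0.25), were lower. IL1b raised PLPP3 to 37.8 CPM (1.31) and ASS1 to 30.1 CPM (0.34) and lowered THBD (-0.45) and EDN1 (-0.37). In EV-TNF, EV-IL1b and EV-Epinephrine cells PLPP3 (-0.86, -0.86 and -1.04) and THBD (-0.39, -0.42 and -0.62) were lower than in EV-Control. ASS1 went the other way in EV-TNF (0.34, adjusted p 0.0143) and EV-IL1b cells (0.43, adjusted p 0.00143).

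SOX17 was the SOXF gene with the highest level, and TNF and C5a moved it in opposite directions. Control libraries held 48.3, 46.2 and 41.3 CPM. TNF libraries held 100, 114 and 104 CPM, and C5a libraries 21.1, 22.7 and 19.6 CPM, with no overlap either way. SOX17 rose by 1.23 with TNF (SE 0.07, adjusted p 2.78e-17) and fell by 1.09 with C5a (SE 0.078, adjusted p 4.14e-13). IL1b libraries (40.1, 40.5 and 42.2 CPM; -0.14, 95% interval -0.29 to 0.01, adjusted p 0.125) and Epinephrine libraries (42.6, 51.8 and 47.3 CPM; 0.07, interval -0.08 to 0.22, adjusted p 0.539) overlapped Control. IL1b cells had less SOX17 than TNF cells (-1.36, SE 0.07, adjusted p 3.79e-18), and Epinephrine cells more than C5a cells (1.16, SE 0.078, adjusted p 3.5e-14).

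All 4 vesicle groups had less SOX17 than EV-Control. EV-Control libraries held 49.9, 51 and 40.5 CPM and overlapped Control (0.06, 95% interval -0.11 to 0.22). EV-TNF held 28.9, 33.1 and 37.2 CPM, EV-IL1b 31.9, 28.9 and 32.7 CPM, EV-C5a 36.6, 33.4 and 35.1 CPM and EV-Epinephrine 26.4, 30.5 and 29.6 CPM, each of these libraries below the lowest EV-Control library. SOX17 fell by 0.71 in EV-Epinephrine (SE 0.085, adjusted p 7.22e-08), by 0.6 in EV-IL1b (SE 0.084, adjusted p 2e-06), by 0.52 in EV-TNF (SE 0.083, adjusted p 2.34e-05) and by 0.43 in EV-C5a (SE 0.083, adjusted p 0.0357). The EV-C5a call was lost on leaving out any of 5 of the 6 libraries compared, with adjusted p-values of 0.0646 to 0.312.

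SOX18, a factor of lymphatic and vascular development, was low and fell furthest under TNF. Control libraries held 2.86, 3.85 and 3.32 CPM (54 to 72 counts), and TNF libraries 0.468, 0.161 and 0.866 CPM (3 to 15 counts), without overlap. The log2 fold change was -2.74 (SE 0.33, adjusted p 7.76e-09), and -3.45 without the third TNF library, which held the highest TNF value. SOX18 was also higher in IL1b than in TNF cells (2.34, SE 0.34, adjusted p 6.35e-07), by 3.04 without that library. Epinephrine libraries held 1.63, 2.21 and 2.02 CPM (-0.77, SE 0.26, adjusted p 0.0265), a call that did not hold on leaving out 1 of 4 libraries (Control 2 or 3, or Epinephrine 1 or 3, adjusted p 0.0537 to 0.126). IL1b (2.73, 2.7 and 2.08 CPM, adjusted p 0.189) and C5a (2.9, 3.02 and 2.96 CPM, adjusted p 0.693) gave no call. EV-Control libraries held 0.72, 1.87 and 1.64 CPM, all below Control (-1.22, SE 0.28, adjusted p 0.000519), and -0.92 without the first of them (adjusted p 0.0206). EV-TNF libraries held 3.05, 2.81 and 1.93 CPM and were higher than EV-Control (0.87, SE 0.28, adjusted p 0.0321), a call lost without EV-Control 1 (0.57, adjusted p 0.255), EV-TNF 1 (adjusted p 0.15) or EV-TNF 2 (adjusted p 0.101). EV-IL1b (2.14, 2.68 and 2.22 CPM), EV-C5a (1.36, 1.55 and 2.13 CPM) and EV-Epinephrine (2.49, 2.34 and 2.22 CPM) did not pass.

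SOX7 varied least of the 3, between 3.78 and 7.64 CPM over all 30 libraries. Control libraries held 4.07, 4.33 and 4.84 CPM and IL1b libraries 6.45, 6.45 and 6.71 CPM, and SOX7 rose with IL1b by 0.58 (SE 0.16, adjusted p 0.00323). TNF libraries (5.14, 5.75 and 5.89 CPM; 0.35, adjusted p 0.0768) and C5a libraries (5.33, 5.45 and 6.38 CPM; 0.39, adjusted p 0.085) also lay above Control, without passing. Epinephrine libraries (5.35, 3.96 and 5.56 CPM) overlapped Control, and in none of the 4 vesicle comparisons did SOX7 pass (log2 fold changes of -0.13 to 0.19). SOX7 (chr8:10723768-10730512, minus strand) and SOX17 (chr8:54457935-54460888, plus strand) lie on 1 chromosome in hg38. In GENCODE 29 SOX7 shares 1268 exon bases on its own strand with a readthrough transcript of PINX1, which had at most 1 count in any library.

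Per exon length, SOX17 made up 85.9 ± 1.93% of the summed RPKM of the 3 SOXF genes in Control, 95.7 ± 0.604% in TNF and 72.8 ± 2.33% in C5a libraries. SOX18 made up 7.99 ± 1.26% in Control, 0.576 ± 0.411% in TNF and 12.8 ± 0.426% in C5a libraries. SOX7 held 6.14 ± 0.929% in Control and 14.4 ± 1.91% in C5a libraries. Over the vesicle groups SOX17 ranged from 80 ± 2.1% (EV-Epinephrine) to 89.5 ± 0.623% (EV-Control).

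**Figure D4:**
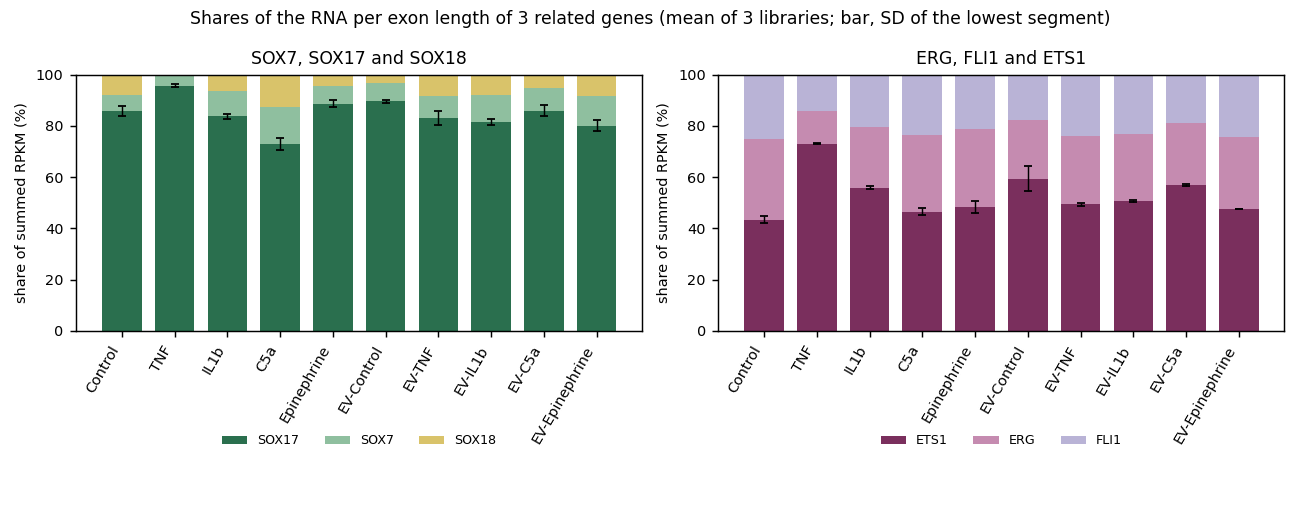
Stacked bars give the mean share in percent of the summed RPKM (CPM per exon kilobase) of each gene among the SOXF genes (left) and among ERG, FLI1 and ETS1 (right), with 3 libraries per group and error bars giving the SD of the lowest segment. In TNF libraries SOX17 (95.7%) and ETS1 (73%) hold their largest shares.

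ETS1 showed the largest rise among the members. Control libraries held 120, 124 and 116 CPM, TNF libraries 546, 540 and 550 CPM and IL1b libraries 204, 207 and 205 CPM, with no overlap. ETS1 was 4.54-fold higher with TNF (log2 fold change 2.18, SE 0.053, adjusted p 2.03e-28) and 1.72-fold higher with IL1b (0.78, SE 0.052, adjusted p 7.87e-15). Epinephrine libraries held 143, 130 and 160 CPM and were higher by 0.28 (SE 0.052, adjusted p 0.000115). C5a libraries held 121, 128 and 121 CPM and overlapped Control (0.05, 95% interval -0.06 to 0.15). TNF cells had more ETS1 than IL1b cells, whose log2 fold change against TNF was -1.4 (SE 0.051, adjusted p 1.4e-22), and Epinephrine cells more than C5a cells (0.23, SE 0.052, adjusted p 0.00143).

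Vesicles gave lower ETS1 than EV-Control in 3 of the 4 comparisons. EV-Control libraries held 220, 177 and 152 CPM of ETS1, above Control (0.6, SE 0.082, adjusted p 8.54e-06). EV-TNF libraries held 133, 134 and 133 CPM, EV-IL1b 133, 135 and 137 CPM and EV-Epinephrine 126, 122 and 124 CPM, all below the lowest EV-Control library. ETS1 fell by 0.56 in EV-Epinephrine (SE 0.1, adjusted p 0.00282), by 0.45 in EV-TNF (SE 0.1, adjusted p 0.0134) and by 0.44 in EV-IL1b (SE 0.1, adjusted p 0.0152). EV-C5a libraries (157, 163 and 168 CPM) overlapped EV-Control (-0.17, adjusted p 0.764). The first EV-Control library held the 220 CPM. Without it ETS1 was still higher in EV-Control than in Control (0.46, adjusted p 4.04e-10) and the vesicle differences were smaller, at -0.41 (adjusted p 8.58e-11) in EV-Epinephrine, -0.3 (adjusted p 5.02e-07) in EV-TNF and -0.28 (adjusted p 2.1e-06) in EV-IL1b. In EV-IL1b the call was lost without EV-IL1b 1 (adjusted p 0.0566) or EV-IL1b 2 (adjusted p 0.0517). In fits of only the 2 groups compared all 4 of these calls were lost (adjusted p 0.186 for EV-TNF, 0.193 for EV-IL1b, 0.0905 for EV-Epinephrine and 0.063 for EV-Control against Control).

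FLI1 rose with TNF. Control libraries held 76.5, 82.6 and 79.2 CPM and TNF libraries 120, 119 and 121 CPM, a log2 fold change of 0.6 (SE 0.051, adjusted p 2.8e-12). IL1b libraries (86.7, 83.9 and 85.5 CPM; 0.11, adjusted p 0.0728), C5a libraries (72.7, 70 and 72.5 CPM; -0.14, adjusted p 0.0565) and Epinephrine libraries (72.7, 75.1 and 67.7 CPM; -0.14, adjusted p 0.0545) did not overlap Control, yet did not pass. The Epinephrine value passed with relative log expression factors (adjusted p 0.0427), library totals (0.0387), a minimum mean of 50 counts (0.024) and DESeq2 (0.0385). It also passed with all 30 libraries in 1 fit (0.0316) and without Epinephrine 2 (0.0151). IL1b cells had less FLI1 than TNF cells (-0.48, SE 0.051, adjusted p 7.7e-10). FLI1 shares 162 exon bases with SENCR, an antisense RNA of at most 301 counts, and it is not given in the sources used here whether counting used the strand.

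EV-Control cells had less FLI1 than Control cells, with libraries at 55, 61.2 and 65.4 CPM (-0.39, SE 0.053, adjusted p 4.24e-08). EV-TNF libraries (73.2, 73.2 and 74.7 CPM) and EV-Epinephrine libraries (73.6, 71.7 and 72.7 CPM) lay above EV-Control, by 0.28 (SE 0.054, adjusted p 0.000134) and 0.26 (SE 0.054, adjusted p 0.000212). EV-IL1b libraries (71.1, 68.5 and 70.5 CPM) were higher by 0.21 (SE 0.055, adjusted p 0.00557), and by 0.14 without EV-Control 1 (adjusted p 0.095). EV-C5a libraries (60.9, 65.5 and 60.5 CPM) overlapped EV-Control (0.04, 95% interval -0.07 to 0.15).

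ERG moved little under the direct stimuli. Control libraries held 92.1, 90.3 and 98.3 CPM, TNF libraries 103, 99.1 and 106 CPM, IL1b libraries 95.8, 94.5 and 90.2 CPM, C5a libraries 88.7, 83 and 81.4 CPM and Epinephrine libraries 98, 92.3 and 99.7 CPM. The rise with TNF was 0.13 (SE 0.053, adjusted p 0.0327), a value that rests on the scaling. TNF libraries had scaling factors of 0.842 to 0.861, where those of the other groups ran from 0.974 to 1.05, and dividing by library totals alone moved the median of all genes from -0.01 to -0.29. ERG was then lower with TNF (-0.14, adjusted p 0.0201), while the directions of the other 7 members called with TNF held. The call was also lost on leaving out Control 1, Control 2, TNF 1 or TNF 3 (adjusted p 0.0639 to 0.144). For IL1b the difference was 0.01 (95% interval -0.1 to 0.11), for Epinephrine 0.06 (-0.05 to 0.16) and for C5a -0.14 (-0.25 to -0.03, adjusted p 0.0543). Epinephrine cells had more ERG than C5a cells (0.2, SE 0.053, adjusted p 0.00713), a call that was lost without C5a 3 (adjusted p 0.0552).

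Within the vesicle groups ERG held 78.7, 72.8 and 71.8 CPM in EV-Control libraries and, in the other 4 groups, between 69.8 and 78.9 CPM. EV-Control lay below Control without overlap (-0.33, SE 0.052, adjusted p 1.06e-06). The 4 differences from EV-Control ran from -0.02 to 0.06, and none passed. The interval for EV-TNF was -0.06 to 0.15 and that for EV-Epinephrine -0.05 to 0.16.

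ETS1 made up 43.3 ± 1.31% of the summed RPKM of ERG, FLI1 and ETS1 in Control, 73 ± 0.239% in TNF and 55.8 ± 0.599% in IL1b libraries. ERG made up 31.7 ± 1.56% in Control and 12.9 ± 0.285% in TNF libraries. In EV-Control libraries ETS1 made up 59.4 ± 4.74%, and in EV-Epinephrine libraries 47.6 ± 0.0303%.

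Of 14 other ETS factors, all tested, TNF raised 7 and lowered 3 (background 27.5% higher and 25.3% lower). With library totals alone the count was 4 higher and 6 lower, so the balance of this list rests on the scaling. The highest rises were those of ETS2 (136 to 285 CPM, 1.07), ELF1 (139 to 254 CPM, 0.87) and ETV6 (37.7 to 66.4 CPM, 0.82). ETS2 was lower with C5a (95.5 CPM, -0.5) and higher with IL1b (177 CPM, 0.39) and Epinephrine (163 CPM, 0.27). IL1b raised 5 factors of this list and lowered 1 (background 24% higher, 22.6% lower). C5a raised 2 and lowered 2 (background 11.8% and 10.8%) and Epinephrine raised 2 and lowered 1 (background 13.5% and 11.8%), near the shares among all genes. In EV-Control cells ETS2 stood at 204 CPM (0.58 against Control), and it was lower in EV-TNF (-0.43), EV-IL1b (-0.42) and EV-Epinephrine cells (-0.57). ETV1 was higher in these 3 groups (0.55, 0.63 and 0.79).

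NOS3 was detected at 0 to 17 counts per library, so its differences carry wide intervals. Control libraries held 17, 11 and 9 counts, TNF libraries 2, 3 and 5 and IL1b libraries 3, 1 and 2 counts, without overlap. The ratio of summed, depth-scaled counts to Control was 0.294 for TNF (10 against 37 counts, 95% counting interval 0.13 to 0.603) and 0.157 for IL1b (6 against 37 counts, 0.0543 to 0.376). Intervals of this kind cover counting error only. In edgeR's test NOS3 was lower with IL1b (adjusted p 0.00488) and with TNF (adjusted p 0.0344), and the TNF call was lost with no filter on low counts (adjusted p 0.0655) and on leaving out Control 1, Control 2, TNF 1 or TNF 2 (adjusted p 0.0544 to 0.141). C5a libraries held 0, 9 and 14 counts (adjusted p 0.425) and Epinephrine libraries 10, 10 and 8 counts (adjusted p 0.631). The difference between IL1b and TNF was not detectable at this depth (ratio 0.535, interval 0.16 to 1.62).

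After vesicles NOS3 held 4, 15 and 4 counts in EV-Control, 7, 8 and 7 in EV-TNF, 8, 7 and 5 in EV-IL1b, 4, 5 and 0 in EV-C5a and 17, 11 and 6 in EV-Epinephrine libraries. The library of 0 counts allows up to 3. All groups overlapped and no comparison passed, with ratios to EV-Control from 0.37 (EV-C5a, interval 0.151 to 0.83, adjusted p 0.665) to 1.45 (EV-Epinephrine, interval 0.832 to 2.59). The second EV-Control library held 15 of the 23 EV-Control counts, and without it the log2 fold changes moved from -0.16 to 0.74 for EV-TNF, from -0.21 to 0.69 for EV-IL1b, from -1.39 to -0.5 for EV-C5a and from 0.53 to 1.42 for EV-Epinephrine, still without a call. For EV-Control against Control the value moved from -0.62 (adjusted p 0.53) to -1.51 (adjusted p 0.179). The direction of NOS3 with EV-TNF and EV-IL1b thus turned on 1 library. NOS3 shares 786 exon bases with ATG9B on the other strand, which had at most 6 counts.

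Other genes of the nitric oxide pathway formed a list of 19, of which 13 were tested among the direct libraries. TNF raised 6 and lowered 1 (background 27.5% higher), and with library totals alone it raised 2 and lowered 4, so this balance too rests on the scaling. GCH1, which makes the cofactor tetrahydrobiopterin of nitric oxide synthases, rose from 28.3 to 224 CPM with TNF (2.99, SE 0.065) and to 69 CPM with IL1b (1.29). CAV1, caveolin 1, which binds and restrains the NOS3 protein, rose from 221 to 521 CPM with TNF (1.24) and to 267 CPM with IL1b (0.29). DDAH2, also on this list, fell from 44.1 to 24 CPM with IL1b (-0.87) and to 35.1 CPM with TNF (-0.33). The other synthases, NOS1 and NOS2, and the guanylate cyclase genes GUCY1A1 and GUCY1B1 were too low to test, NOS1 at 0.0178 and NOS2 at 0 CPM on average in Control. Against EV-Control 2 genes of this list were higher and 2 lower with EV-TNF (background 5.9% and 7.42%), 3 higher and 1 lower with EV-IL1b (background 6.49% and 8.14%) and 2 higher and 3 lower with EV-Epinephrine (background 9.12% and 10.5%). GCH1 was lower in EV-Epinephrine cells (23.8 against 28.6 CPM, -0.27).

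Endothelial identity targets, a list of 24 genes at the endothelial surface and in its signalling, most of them known targets of ETS or SOXF factors, were mostly lower after direct stimulation. The endothelial markers summed above are largely genes of this list. Of 23 tested, IL1b and C5a each lowered 19 (backgrounds 22.6% and 10.8% lower), and Epinephrine lowered 13 and raised 1 (background 11.8% lower). TNF lowered 12 and raised 6 (background 25.3% lower), and with library totals it lowered 13 and raised 3. The median log2 fold change of the list was -0.5 with IL1b, -0.41 with C5a, -0.3 with Epinephrine and -0.23 with TNF. APLN, the gene of the peptide apelin, fell from 134 to 33.6 CPM with TNF (-1.99), to 49 CPM with IL1b (-1.44) and to 70.3 CPM with Epinephrine (-0.92). CLDN5, the tight junction protein claudin 5, fell from 47.6 CPM to 19.8 with TNF (-1.26), 16.4 with IL1b (-1.53), 19.3 with C5a (-1.29) and 25.5 CPM with Epinephrine (-0.89). DLL4, a Notch ligand of arterial endothelium, fell from 8.73 to 3.69 CPM with TNF (-1.24), 2.93 with IL1b (-1.57) and 3.8 CPM with C5a (-1.19). CDH5, VE-cadherin, and TEK, the angiopoietin receptor, rose with TNF (0.66 and 0.78) and fell with IL1b (-0.33 and -0.35), C5a (-0.3 and -0.54) and Epinephrine (-0.44 and -0.3).

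In EV-Control cells 19 of the 24 identity targets were lower than in Control (background 9.8% lower, list median -0.58), and 17 were lower without EV-Control 1. Beside them SNAI2 (42.1 against 5.41 CPM), SNAI1 (28.9 against 12.2 CPM) and TWIST1 (9.66 against 3.82 CPM) had higher mean levels in EV-Control than in Control. Of the same list of 8 fibroblast and mesenchymal markers, COL1A1 was higher (87.5 against 71.4 CPM) and COL1A2 lower (135 against 208 CPM). The mean sum of that list was 304 CPM in EV-Control and 301 CPM in Control. The part of these markers in this result was not tested. CLDN5 stood at 15.1 CPM (-1.66), EGFL7, a secreted factor of vessel formation, fell from 163 to 79.1 CPM (-1.04) and ESAM, an endothelial adhesion molecule, from 24.4 to 12.1 CPM (-1.02). Against EV-Control, 11 targets were higher in EV-TNF cells (background 5.9% higher), 9 in EV-IL1b cells (background 6.49% higher) and 11 in EV-Epinephrine cells (background 9.12% higher), with 1, 1 and 2 lower. Without EV-Control 1 the numbers higher were 9, 8 and 7. ESAM was higher by 0.65 in EV-TNF, 0.62 in EV-IL1b and 0.57 in EV-Epinephrine cells. CD34, a sialomucin of vascular cells, rose from 56.4 CPM to 82.7 in EV-TNF (0.55) and 81.9 CPM in EV-IL1b (0.54).

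Of 20 other endothelial transcription factors, 19 were tested. TNF raised 10 and lowered 4 (background 27.5% higher, list median 0.48; 10 and 7 with library totals alone). GATA6, a zinc finger factor, rose from 6.45 to 46.4 CPM (2.84), HEY1, a Notch effector, from 1.75 to 10.4 CPM (2.57) and LMO2, a partner of GATA and TAL1 factors, from 1.07 to 5.34 CPM (2.31). Epinephrine raised 6, among them HEY1 (6.87 CPM, 1.98) and GATA6 (10.4 CPM, 0.71), and lowered 2 (background 13.5% higher, 11.8% lower). IL1b lowered 6 and raised 2 (background 22.6% lower, 24% higher), and C5a lowered 7 and raised 3 (background 10.8% lower, 11.8% higher). TBX3, a T-box factor, stood at 64 CPM with IL1b (-0.69) and 54.3 CPM with C5a (-0.93) against 104 CPM in Control. GATA6, HEY1 and TBX3 were higher in EV-Control than in Control (1.81, 2.35 and 1.01). They were lower than in EV-Control in EV-TNF (-1.91, -1.3 and -1.2), in EV-IL1b (-1.87, -1.22 and -1.28) and in EV-Epinephrine cells (-2.07, -1.7 and -1.41).

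**Figure D5:**
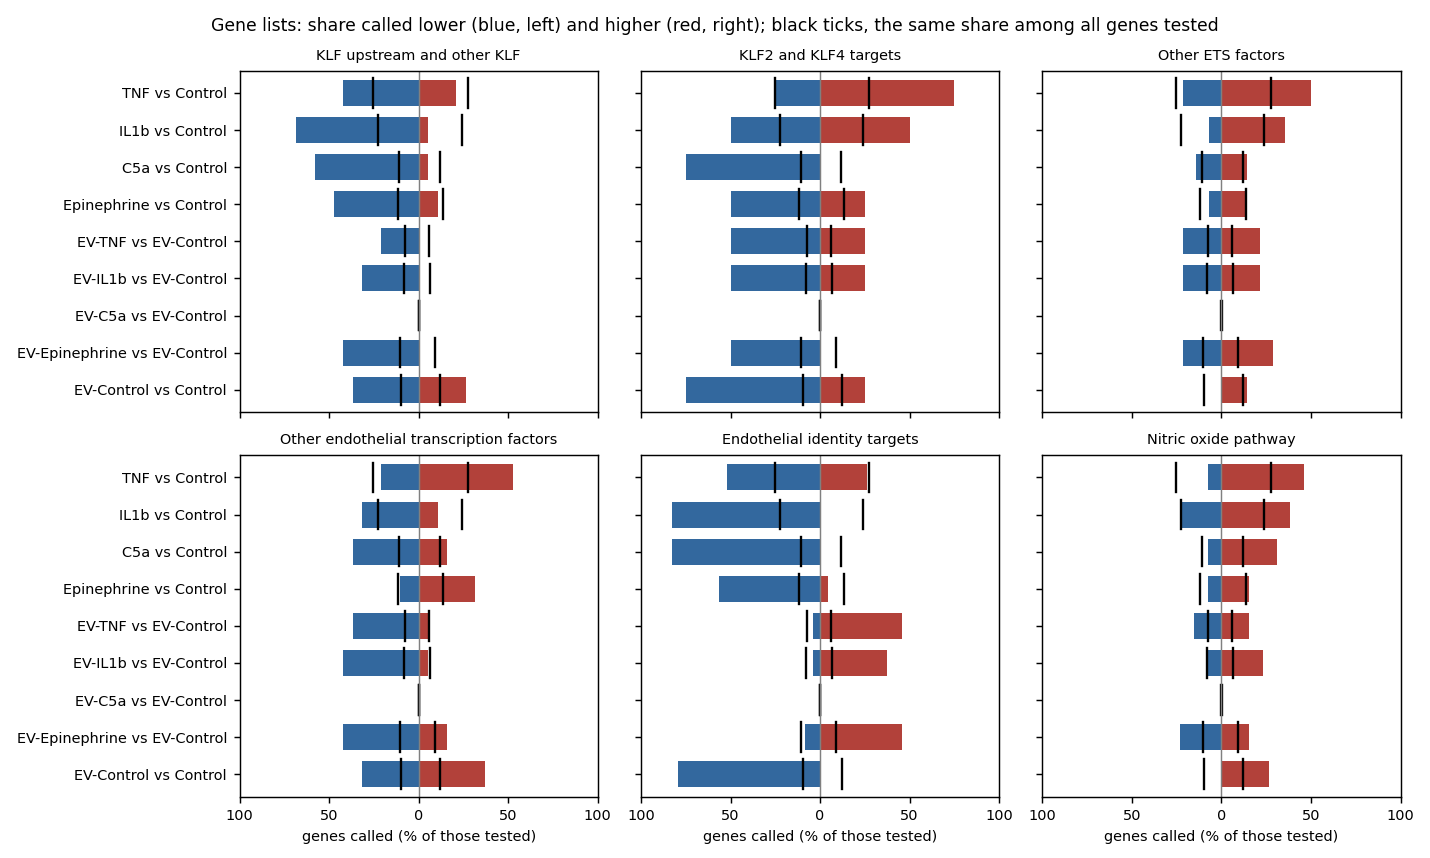
Each panel is one gene list, with bars for the percentage of its tested genes called lower (blue, to the left) and higher (red, to the right) in 9 comparisons, and black ticks at the same share among all genes tested. The identity targets extend to the left for IL1b, C5a and EV-Control and to the right for EV-TNF, EV-IL1b and EV-Epinephrine.

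The genes with the pattern most like each member were taken by Pearson's r of log2 CPM over the 10 group means, with no test. For ETS1 these included RICTOR (r = 0.991) and RIPK2 (0.991). FLI1 was followed by CASP10 (0.983), NUAK1 (0.97) and VDR (0.969), and KLF4 by ARRDC3 (0.985), CHMP1B (0.98) and JUND (0.979). KLF2 was followed by GDF15 (0.949), GPR153 (0.916) and CCDC85C (0.911). For SOX17 they were PELO (0.958), TAF13 (0.956) and TPST1 (0.953), for SOX18 FBLIM1 (0.965), PRUNE1 (0.962) and TXNRD2 (0.962), and for ERG SYNJ1 (0.961), OSBP2 (0.956) and SLC35A2 (0.951). Over the 30 libraries r was 0.978 for KLF4 with ARRDC3, 0.985 for ETS1 with RIPK2 and 0.893 for KLF2 with GDF15. Other pairs dropped further, such as KLF2 with GPR153 (0.725), ERG with SYNJ1 (0.805) and SOX18 with FBLIM1 (0.81). SOX7 and INTS11 (0.952) and NOS3 and COMMD8 (0.91) fell to 0.343 and 0.411 over the libraries. The points share the cell line, and for ETS1, FLI1, SOX17 and SOX18 the TNF group is the extreme one.

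The direct and the vesicle responses were compared by an interaction, the vesicle response minus the direct one, in a fit of all 30 libraries. With TNF 6 of the 9 members differed between the routes, 2 higher and 4 lower with vesicles, where 44.7% of 16691 genes did (21.3% higher, 23.4% lower). With IL1b 5 differed, 3 higher and 2 lower (background 35.2%, with 16.9% higher and 18.3% lower). With C5a 3 differed, all higher (background 11.9%, with 5.87% higher and 6.05% lower), and with Epinephrine 5, 2 higher and 3 lower (background 24.2%, with 11.7% higher and 12.5% lower). ETS1 was higher than Control with TNF and IL1b and lower than EV-Control with vesicles from such cells. The interactions were -2.63 (SE 0.12, adjusted p 7.13e-15) and -1.21 (SE 0.12, adjusted p 2e-08). EV-Control itself (mean 183 CPM) lay above Control (120 CPM), and so did EV-TNF (133 CPM) and EV-IL1b (135 CPM). Both vesicle calls against EV-Control were lost in fits of only the groups compared. KLF2, which fell with TNF, IL1b and C5a and gave no call with the matching vesicles, differed by 1.87, 2.34 and 1.76 (SE 0.36, 0.37 and 0.36). SOX17 differed for all 4 agents, by -1.74 with TNF, -0.45 with IL1b, 0.67 with C5a and -0.77 with Epinephrine. The interaction of ERG did not pass for any agent (-0.09 to 0.13), and with library totals it was 0.2 for TNF (adjusted p 0.0169). Of NOS3 no interaction passed, with a value of 2.39 for IL1b (95% interval 0.35 to 4.42, adjusted p 0.0602). That value passed without EV-Control 2 (3.27, adjusted p 0.0174) and when the fit held those groups alone (2.38, adjusted p 0.0403). The C5a value turned from -0.65 to 0.23 without EV-Control 2, with no call either way.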

How the data were processed

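RNA was measured in 30 libraries, 10 groups of 3. Per the labels' protocols, total RNA was extracted with QIAshredder and RNeasy and libraries were made with the NEBNext Ultra kit. The authors deposited 1 table of raw counts per Ensembl gene, without normalization. The submitters' processing notes name hg38, STAR, FastQC, DESeq2 and R 4.4.1. The counting program, annotation and strand setting are not given in the sources used here.

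The 63147 lines included 4 without a gene ID (0.000789% to 0.00164% of a library) and 2 broken genes (TTN and ANK2), which were left out, and 3 repeated IDs with identical counts, kept once. This left 63138 genes. All 30 columns matched a library name in the labels. Replicate pairs differed beyond sampling noise (chi-square per gene of 2.04 to 12.94 over genes with at least 20 counts).

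Tests were run on the deposited counts by edgeR 4.0.16 in R 4.3.3 (filterByExpr, trimmed mean of M-values, robust quasi-likelihood test, two-sided, Benjamini-Hochberg adjustment over all genes, threshold 0.05). Fits used the 15 direct libraries (15908 genes), the 15 vesicle libraries (15918 genes) or all 30 (16691 genes, for EV-Control against Control and the interactions). RPKM use union exon lengths of GENCODE 29. On simulated counts with a log2 change of 1, the step recovered 174 of 200 changed genes among 15367 (149 of 149 with a mean of at least 50 counts), with 9 false calls. Every simulated gene had the same spread and few genes changed, where 52.7% of genes were called with TNF in the data. The simulation therefore does not cover the scaling of the TNF libraries or genes of wider spread.

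The members and lists were chosen with earlier results of these data known, and the motifs after the data were seen. Members were always named. From each list up to 3 genes per comparison were to be named, those with the largest change among genes with an adjusted p under 0.05 and at least 5 CPM in the higher group. CAV1, CDH5, TEK, THBD, ASS1, SNAI1, SNAI2, TWIST1, MAPK7, MAP2K5 and the untested synthase and cyclase genes, where they stand outside that rule, were named after their values were seen. So were the markers PDGFRB, RGS5, ACTA2, CNN1, MYH11, TAGLN, DES, COL1A1, GFAP and CD14. Pattern neighbours were the 3 genes with the highest r, of which 1 is not reported here. Alternatives were relative log expression factors, library totals, no filter on low counts, DESeq2 1.42.0, a minimum mean of 50 counts, a replicate block, a fit of all 30 libraries, fits of only the groups compared and leaving out each library. Counts of list genes without EV-Control 1 and under other scalings were added after seeing the data.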

Additional observations from a re-analysis of the deposited data

Results flagged for a closer look

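The responses to an agent given directly and to vesicles from cells given that agent differed for 19 of the 36 combinations of gene and agent. The test was edgeR's quasi-likelihood test of the interaction, the vesicle response minus the direct one. By agent, 6 of the 9 members differed for TNF, 5 for IL1b, 3 for C5a and 5 for Epinephrine. Among all 16691 genes the shares were 44.7%, 35.2%, 11.9% and 24.2%. An interaction also depends on the references, and EV-Control differed from Control in 6 of the 9 members. Values are log2 differences.

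For TNF, ETS1 differed by -2.63 (adjusted p 7.13e-15), SOX17 by -1.74 (adjusted p 1.4e-17), KLF4 by -1.31 (adjusted p 0.000864) and FLI1 by -0.31 (adjusted p 0.000329), while KLF2 differed by 1.87 (adjusted p 0.000211) and SOX18 by 3.61 (adjusted p 3.3e-10). The FLI1 value was -0.03 (adjusted p 0.794) with library totals. SOX18 gave 4.32 without TNF 3. For IL1b, KLF2 differed by 2.34 (adjusted p 2.79e-05), SOX18 by 1.14 (adjusted p 0.0158), KLF4 by 0.9 (adjusted p 0.0255), SOX17 by -0.45 (adjusted p 0.00203) and ETS1 by -1.21 (adjusted p 2e-08). Without EV-Control 1 the calls of KLF4 (0.75, adjusted p 0.077) and SOX18 (0.82, adjusted p 0.101) were lost, and that of SOX18 also without Control 2 (adjusted p 0.0518) or EV-IL1b 2 (adjusted p 0.0519). The KLF4 call was also lost without Control 1 (adjusted p 0.104), IL1b 1 (0.0615), IL1b 2 (0.0547), EV-Control 2 (0.0609) or EV-IL1b 3 (0.0768). SOX18 passed neither with IL1b against Control (adjusted p 0.189) nor with EV-IL1b against EV-Control (adjusted p 0.0907). Its means were 2.5 CPM in IL1b and 2.35 in EV-IL1b, beside 3.34 in Control and 1.41 CPM in EV-Control.

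For C5a, KLF4 differed by 1.87 (adjusted p 0.00028), KLF2 by 1.76 (adjusted p 0.00222) and SOX17 by 0.67 (adjusted p 8.32e-05). For Epinephrine, SOX18 differed by 1.49 (adjusted p 0.00236) and FLI1 by 0.41 (adjusted p 1.85e-05), and KLF4 differed by -1.28 (adjusted p 0.00312), ETS1 by -0.82 (adjusted p 1.12e-05) and SOX17 by -0.77 (adjusted p 1.41e-06). Without EV-Control 1 these were 1.72, 1.45 and 0.7 for C5a and 1.18, 0.34, -1.42, -0.68 and -0.74 for Epinephrine, and all 8 calls held. Mean FLI1 was 71.9 CPM in Epinephrine and 72.7 in EV-Epinephrine, where the references were 79.4 (Control) and 60.5 CPM (EV-Control). For SOX18 these means were 1.95 and 2.35 CPM, with references of 3.34 and 1.41 CPM. The FLI1 and SOX18 values thus include the difference between the 2 references.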

How the results depend on the processing

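Of 2025 values of the 9 members under alternatives, 1931 kept their side of the threshold, 55 lost a call, 37 gained one and 2 reversed. Reversed here means a change of sign with a call in either setting. Values with no call in either setting count as kept even where their sign changed. NOS3 with EV-TNF, for example, moved from -0.16 to 0.74 without EV-Control 2. Both reversed values are ERG with library totals, -0.14 for TNF and 0.2 for the TNF interaction. Library totals also moved the share of called genes that were higher from 52.1% to 22.7% for TNF, from 51.5% to 38.6% for IL1b, from 48.1% to 76.1% for IL1b against TNF, from 47.7% to 76.7% for the TNF interaction, from 48.1% to 62.4% for the IL1b interaction, from 46.4% to 60.2% for EV-Epinephrine and from 55.3% to 42.6% for EV-Control against Control. With EV-C5a the split of 8 genes moved from 25% to 40%.

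The number of members called with TNF was 5 of 9 with a filter at a mean of 50 counts (8 without it), since NOS3 and SOX18 were then not tested and ERG had an adjusted p of 0.0656. ERG also lost that call with no filter (adjusted p 0.0898). With C5a it was 5 in place of 3, with ERG (-0.15 to -0.14) and FLI1 (-0.15 to -0.14) added, under relative log expression factors, the filter at 50, DESeq2, all 30 libraries in 1 fit and only the groups compared. In fits of only the groups compared it was 2 for EV-TNF (4), 0 for EV-C5a (1) and 3 for EV-Control against Control (6), where KLF2, KLF4 and ETS1 lost their calls. For EV-C5a it was also 0 with the filter at 50. All genes called with EV-C5a numbered 8, with 73 when no filter was used, 5 with library totals, 3 with the filter at 50, 3 in 1 fit of all 30 libraries, 3 with only the groups compared, and 2 (without EV-Control 2 or EV-C5a 2) to 175 (without EV-Control 3) on leaving out 1 library. With relative log expression factors 22.5% of all genes were called with C5a. Apart from this and EV-C5a, the shares of all genes called under these settings are not given here. The other member counts therefore have no background beside them. Causes were not tested.

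When each library was left out in turn, the members called ranged from 6 to 8 with TNF, 5 to 6 with IL1b, 3 to 4 with C5a, 2 to 4 with Epinephrine, 5 to 6 for IL1b against TNF, 3 to 4 for Epinephrine against C5a, 3 to 4 with EV-TNF, 2 to 4 with EV-IL1b, 0 to 2 with EV-C5a, 4 to 5 with EV-Epinephrine and 5 to 6 for EV-Control against Control. The interactions ranged from 6 to 7 (TNF), 3 to 6 (IL1b, 3 without EV-Control 1), 3 to 5 (C5a, 5 without EV-Control 3) and 5 to 6 (Epinephrine). Except for EV-C5a, the numbers of all genes called in these fits are not given here.

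Same-numbered libraries showed no strong shared deviation (correlations of -0.17 to 0.12, against -0.14 to 0.23 for differently numbered ones). Weak correlations over 3 libraries per group cannot exclude that the numbers pair libraries, and the labels do not say. With a replicate block 134 of 135 member values kept their call. SOX17 with EV-C5a did not (-0.43, adjusted p 0.109), so that 0 members were called there. The depth limits NOS3 (0 to 17 counts) and SOX18 in TNF (3 to 15 counts).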
